A study of Mus musculus with 11 samples.

Results

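The 10 genes described here mark reactive astrocytes and were followed through both comparisons of a cocaine study in the mouse nucleus accumbens, a ventral striatal region of reward. The genes were Gfap, Vim, Serpina3n, Lcn2, Osmr, S1pr3, Cd44, Timp1, Steap4 and Hspb1. They were found by their symbols, and all 10 were present among the 14667 genes of each of the 2 tables that the authors deposited. RNA came from the accumbens of 11 C57/BL6 mice, with 1 mouse per library. Every mouse received a virus. That virus made cells overexpress either green fluorescent protein (GFP), the control, or E2F3a, one form of the cell cycle regulator E2F3. The groups were GFP with saline (4 mice), GFP with cocaine (3 mice) and E2F3a with saline (4 mice). The type of virus, its promoter and target cells, the age of the mice and the dose and timing of cocaine are unknown here, and no mouse without virus was analysed here.

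Astrocytes respond to injury, infection and inflammation by a change of state called reactivity. They enlarge their cytoskeleton of intermediate filaments and switch on genes for secreted inhibitors, cytokine receptors and iron-handling proteins. Much of this response runs through cytokines of the interleukin 6 family, their shared receptor subunit gp130 and the transcription factor STAT3, and inflammatory signals from microglia shape it. Several of the genes are also used by other cells. Vim and Cd44 are used by endothelial cells, microglia and leukocytes, and Gfap and Vim by the progenitors of the subventricular zone that borders the accumbens.

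The values are the authors' comparison statistics, so levels per mouse or group and sequencing depth are unknown. A log2 fold change is the log2 of the ratio of 2 group levels, and every standard error (SE) and 95% interval was derived from the deposited fold change and t statistic with 11.29 degrees of freedom. No gene of either table passed an adjusted p of 0.05 by the authors' moderated test (0 of 14667 in each), so counts use an unadjusted p under 0.05. The shares of all genes that reach it, and that lie below 0, are given with the members' counts and apply to every list in the same comparison. As a check of the virus, the authors' deposited table listed E2f3 at a log2 fold change of 1.01 (SE 0.20) with E2F3a. As a check of the region, the markers of medium spiny neurons, the main striatal neuron, all stood at or above percentile 79.6 of mean expression (12 genes measured). The resting astrocyte markers were all measured (20 of 20).

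The members ranged from percentile 9.25 (Hspb1) to percentile 99.7 (Gfap) of mean expression. Levels were compared per kilobase of exon, as the deposited mean log2 expression over the libraries minus the log2 of exon length in GENCODE M21. Serpina3n, a secreted protease inhibitor, had the highest level per kilobase at 8.20, and Gfap, the glial filament protein, followed at 8.07. Vim, the filament protein vimentin, stood at 6.83. These genes lay at percentiles 99.7, 99.6 and 98.3 of all genes by level per kilobase. Next came S1pr3, a receptor for sphingosine 1-phosphate, at 3.84, Timp1, an inhibitor of metalloproteinases, at 3.76, and Lcn2, the iron-siderophore carrier lipocalin 2, at 3.66. Cd44, the hyaluronan receptor, had a level per kilobase of 3.10, Osmr, the receptor of oncostatin M, 1.91, Hspb1, a small heat shock protein, 1.20, and Steap4, a metalloreductase, 0.30.

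The order of these levels was set against the spread between mice. The SD between mice implied by the tables, on the log2 scale and with equal weights for all libraries, was 0.32 for Gfap, 0.39 for Serpina3n and 0.37 for Vim. The gap between Serpina3n and Gfap was smaller than the SD of either gene, as were the gaps among S1pr3, Timp1 and Lcn2. Lcn2 and Steap4 were the most variable members, with implied SDs of 0.88 and 1.03. The gaps between Lcn2 and Cd44 and between Hspb1 and Steap4 were smaller than these SDs. The levels are means over the libraries, which vary less than single mice, and whether the means differ was not tested. For the cocaine comparison, the SEs of the 10 genes lay between percentile 75.6 (Hspb1) and percentile 98.8 (Steap4) of all genes. Their median SE was 0.32, against 0.16 over all genes.

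By the mm10 annotation all 10 are protein-coding genes. The secreted members besides Timp1 were Serpina3n (ENSMUSG00000021091) on chromosome 12 from 104406729 to 104414329 on the plus strand, and Lcn2 (ENSMUSG00000026822) on chromosome 2 from 32384633 to 32388252 on the minus strand. The receptors were Osmr (ENSMUSG00000022146) on chromosome 15 from 6813577 to 6874969 on the minus strand, S1pr3 (ENSMUSG00000067586) on chromosome 13 from 51408639 to 51422797 on the plus strand, and Cd44 (ENSMUSG00000005087) on chromosome 2 from 102811141 to 102901665 on the minus strand. The remaining pair shared a chromosome, with Steap4 (ENSMUSG00000012428) on chromosome 5 from 7960457 to 7982213 on the plus strand, and Hspb1 (ENSMUSG00000004951) on chromosome 5 from 135887919 to 135889563 on the plus strand. S1pr3 shares 45 exon bases with the opposite-strand gene Gm32834, and the library kit does not mark strand.

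**Figure D1:**
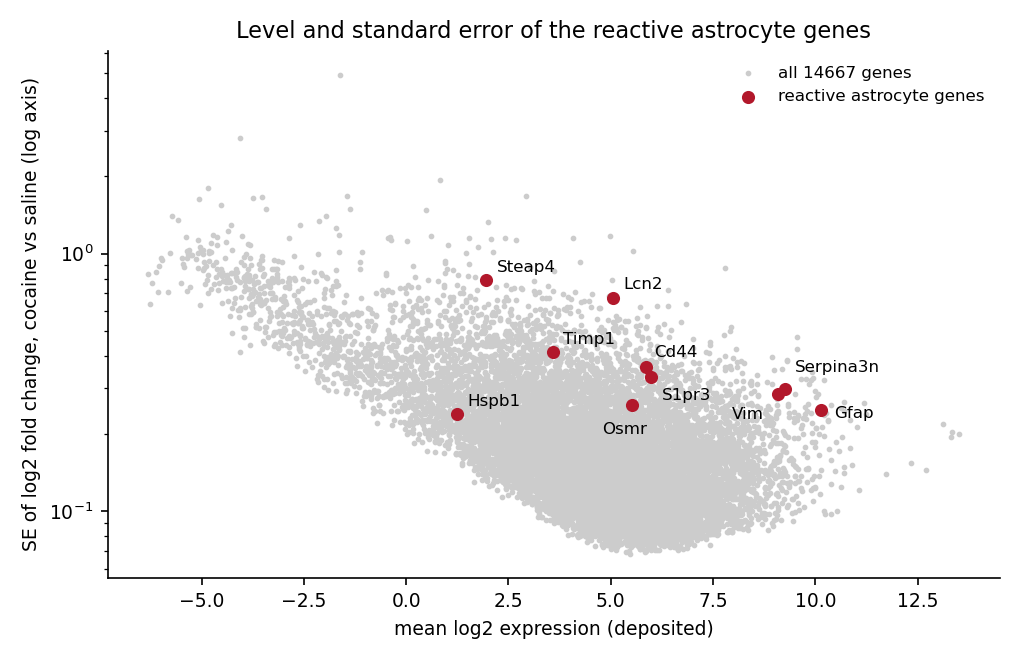
Standard error of the log2 fold change for cocaine against saline (vertical log axis) against the deposited mean log2 expression (horizontal axis, not divided by length), with all 14667 genes in grey and the 10 reactive astrocyte genes in red. Gfap, Serpina3n and Vim are among the most abundant genes, and Lcn2 (0.67) and Steap4 (0.79) have the largest SEs of the 10.

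Upstream sequence is shown for the 3 members that had the smallest p after cocaine, Vim, Gfap and Timp1, all with estimates below 0. Each line gives the 250 bases before the RefSeq start, 5′ to 3′ on the strand of the gene, on GRCm38.p6. For Vim and Gfap that start lies inside the GENCODE span of the gene, and so does the stretch. Capitals would mark a searched motif that lies wholly inside the stretch, and none did.
Vim (chr2:13574061-13574310, plus strand): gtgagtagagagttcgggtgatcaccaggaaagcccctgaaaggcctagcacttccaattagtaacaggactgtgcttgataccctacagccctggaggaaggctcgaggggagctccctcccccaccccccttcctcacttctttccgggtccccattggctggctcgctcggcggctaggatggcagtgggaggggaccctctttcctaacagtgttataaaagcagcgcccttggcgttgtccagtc
Gfap (chr11:102897201-102897450, minus strand): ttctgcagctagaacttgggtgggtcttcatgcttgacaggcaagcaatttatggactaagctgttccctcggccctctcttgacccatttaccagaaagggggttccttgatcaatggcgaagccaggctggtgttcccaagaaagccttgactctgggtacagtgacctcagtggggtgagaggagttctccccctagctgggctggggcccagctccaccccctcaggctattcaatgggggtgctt
Timp1 (chrX:20869916-20870165, plus strand): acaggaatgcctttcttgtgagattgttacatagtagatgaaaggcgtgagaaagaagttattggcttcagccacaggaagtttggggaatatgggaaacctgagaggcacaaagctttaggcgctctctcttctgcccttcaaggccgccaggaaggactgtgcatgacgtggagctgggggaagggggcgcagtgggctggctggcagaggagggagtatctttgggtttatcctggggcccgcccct

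Promoter windows of 300 bases, which run past the start, were searched on both strands for 4 kinds of motif. The STAT motif TTCNNNGAA was present in 2 of the 10 member windows, Gfap and Steap4, and in 8.30% of all 32851 windows. The AP-1 motif TGANTCA was present in that of Osmr alone, and in 7.81% of all windows. The heat shock element (0.603% of all windows) and the E2F motifs TTTGGCGC and TTTCCCGC (together 1.56%) were found in 0 of the 10. The 3 member matches are printed in windows of 30 bases to show their surroundings, with the motif in capitals.
Gfap (chr11:102897183-102897212, minus strand): atgggggtgcTTCCAGGAAgtcaggggcag
Steap4 (chr5:7960346-7960375, plus strand): ggttgaactcTTCCCGGAAactttgcttca
Osmr (chr15:6874292-6874321, minus strand): tgccccgtagtTGATTCAtagctggggcgc
The Gfap match runs from base -2 to base 7 around the RefSeq start, that of Steap4 from -116 to -108, and that of Osmr from 4 to 10. Base 1 is the first base of the RefSeq transcript. A match is only a run of letters, and binding was not measured.

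Cocaine was first compared with saline among the GFP mice. Of the 10 estimates, 8 lay below 0, beside 53.8% of all genes. Vim, Gfap and Timp1 were lower at an unadjusted p under 0.05. That is 3 of 10 members, beside 7.51% of all genes in that direction. No member was higher at that threshold (0 of 10), where 1.74% of all genes were (9.25% in either direction), and 0 of 10 passed an adjusted p of 0.05 (0.00% of all genes). The median log2 fold change of the 10 was -0.34, against -0.020 over all genes. In bulk tissue, fewer cells of a type and less RNA per cell cannot be told apart.

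Both filament genes were lower after cocaine at an unadjusted p under 0.05. Vim (ENSMUSG00000026728, mm10 chromosome 2, 13573927 to 13582826, plus strand) had a log2 fold change of -0.90 (SE 0.28, 95% interval -1.52 to -0.27) in the authors' deposited table. That is a level of 0.538 of the saline level, with an unadjusted p of 0.00906 and an adjusted p of 0.533 in the authors' deposited table. By unadjusted p Vim ranked 172 of 14667 genes. For Gfap (ENSMUSG00000020932, mm10 chromosome 11, 102887336 to 102900912, minus strand) the authors' deposited table gives -0.60 (SE 0.25, interval -1.14 to -0.058), or 0.660 of the saline level. Its unadjusted p was 0.0329 and its adjusted p 0.533 in the authors' deposited table. The intervals of the pair overlap widely, and whether their estimates differ was not tested.

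The secreted members differed in how firmly they were measured. Timp1 (ENSMUSG00000001131, mm10 chromosome X, 20870166 to 20874735, plus strand) had the lowest estimate of the 10 in the authors' deposited table, -0.91 (SE 0.41, interval -1.82 to -0.0051), with an unadjusted p of 0.0489 and an adjusted p of 0.539. Centred on the median of all genes its p was 0.0533, and with the trend in mean expression removed it was 0.0767, so its place under the threshold depends on these choices. Timp1 lies inside Syn1, a neuronal gene on the other strand, and shares 0 exon bases with it. The authors' deposited table lists Syn1 at 0.14 (SE 0.12). The library kit does not mark strand, and whether reads from Syn1 introns add to the Timp1 values was not tested. Serpina3n, as abundant as Gfap, was at -0.33 (SE 0.30, interval -0.98 to 0.33) by the authors' deposited table. Lcn2, a hallmark of astrocytes after inflammation, had an estimate of -0.24 (SE 0.67) in the authors' deposited table, and its interval of -1.72 to 1.24 includes large differences in either direction.

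None of the receptors passed the unadjusted threshold. Cd44 had an estimate of -0.62 (SE 0.36, interval -1.41 to 0.18) in the authors' deposited table, close to that of Gfap but with a wider interval. S1pr3 was listed at -0.36 (SE 0.33) and Osmr at -0.17 (SE 0.26) by the authors' deposited table, with unadjusted p of 0.306 and 0.524. The interval of Osmr, -0.74 to 0.40, overlaps that of Vim. The 2 members with the lowest levels per kilobase were the ones above 0. The authors' deposited table gives Hspb1 at 0.14 (SE 0.24, interval -0.39 to 0.66) and Steap4 at 0.099 (SE 0.79, interval -1.63 to 1.83). The intervals of Hspb1 and Steap4 both overlap those of Vim and Gfap, that of Hspb1 only slightly for Vim. Overlap does not show that estimates are equal, and differences between members were not tested.

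**Figure D2:**
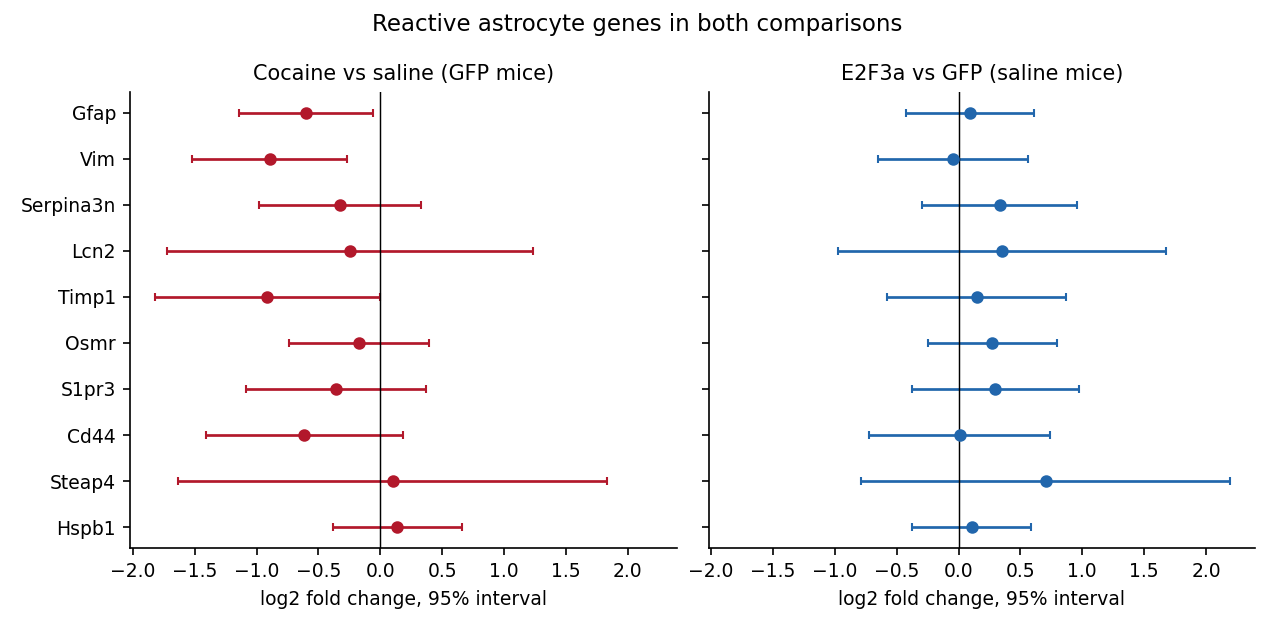
Log2 fold change (horizontal axes) of each of the 10 genes, with points for the deposited estimate and bars for the implied 95% interval, for cocaine against saline in GFP mice (left, red) and E2F3a against GFP in saline mice (right, blue). On the left only the bars of Gfap, Vim and Timp1 lie wholly below 0, and on the right every bar crosses 0.

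E2F3a was then compared with GFP among mice given saline. Reactive astrocyte genes showed no difference that passed either threshold. Of these 10 estimates, 9 lay above 0, with a median log2 fold change of 0.21 against 0.0077 over all genes. Below 0 lay 1 of the 10, beside 47.5% of all genes. At an unadjusted p under 0.05, 0 of 10 were higher and 0 of 10 lower, beside 0.545% and 0.409% of all genes (0.955% in either direction), so these counts are near the background. This comparison uses the same GFP and saline mice as the first, so the values of the tables are not independent of each other.

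For the filament genes the E2F3a estimates were near 0, with Vim at -0.045 (SE 0.27) and Gfap at 0.093 (SE 0.24) by the authors' deposited table. The Gfap interval of -0.43 to 0.61 excludes a rise of more than 0.61 on the log2 scale. Among secreted members the authors' deposited table gives Serpina3n at 0.33 (SE 0.28, unadjusted p = 0.268), Lcn2 at 0.35 (SE 0.60, p = 0.573) and Timp1 at 0.15 (SE 0.33, p = 0.668). Of the receptors, Osmr stood at 0.27 (SE 0.24), S1pr3 at 0.30 (SE 0.31) and Cd44 at 0.0083 (SE 0.33) by the authors' deposited table. The largest estimate was that of Steap4, 0.70, but with an SE of 0.68 and an interval of -0.79 to 2.19 in the authors' deposited table. Hspb1 was at 0.11 (SE 0.22) in the same authors' deposited table. Smallest among the 10 unadjusted p-values was 0.268, that of Serpina3n.

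E2F3a mice given saline were then set against GFP mice given cocaine, by subtracting the cocaine fold change from that of E2F3a. The shared control group drops out of this difference, but virus and treatment both differ between its groups. It uses the same cocaine and E2F3a mice as the comparisons above and is not independent of them. Of the 10 genes, 9 were estimated higher in the E2F3a saline mice, with a median log2 difference of 0.64 against 0.031 over all genes. Below 0 lay 1 of the 10, beside 42.3% of all genes. Vim, Gfap, Timp1 and Serpina3n were higher at an unadjusted p under 0.05, which is 4 of 10 members beside 3.51% of all genes. None of the 10 was lower at that threshold (0.443% of all genes, and 3.95% in either direction), and 0 of 10 passed an adjusted p of 0.05 (0.00% of all genes). Markers of other cell types were also higher in this difference, as given below.

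Timp1 had the largest difference, 1.06 (SE 0.41, interval 0.15 to 1.96), with an unadjusted p of 0.0261. For Vim the difference was 0.85 (SE 0.28, interval 0.23 to 1.48) with an unadjusted p of 0.0120, a level 1.80 times that of the cocaine mice. Gfap differed by 0.69 (SE 0.25, interval 0.15 to 1.24) with an unadjusted p of 0.0167, a level 1.62 times that of the cocaine mice. These genes differ here mainly through their cocaine estimates, since their E2F3a estimates were near 0. Serpina3n differed by 0.66 (SE 0.30, interval 0.0040 to 1.31) with an unadjusted p of 0.0488, and each comparison gave about the same share of it. Its p was 0.0586 after centring on the median of all genes and 0.0551 with the SE of the E2F3a table scaled by group sizes. The adjusted p of these 4 genes over all genes was 0.935.

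S1pr3 (0.65, SE 0.33), Cd44 (0.62, SE 0.36) and Osmr (0.44, SE 0.26) had differences that did not pass, with an unadjusted p of 0.0744 for S1pr3. Steap4 (0.60, SE 0.79) and Lcn2 (0.59, SE 0.67) had wide intervals, -1.13 to 2.34 and -0.88 to 2.07. Hspb1 was the one member with an estimate below 0, at -0.030 (SE 0.24, interval -0.55 to 0.49). The SE of this difference is approximate, taken from the cocaine table because its group sizes are the same. Adding the SEs of both tables in quadrature, as if no controls were shared, left 0 of 10 under the unadjusted threshold, with p of 0.0541 for Vim and 0.0669 for Gfap.

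**Figure D3:**
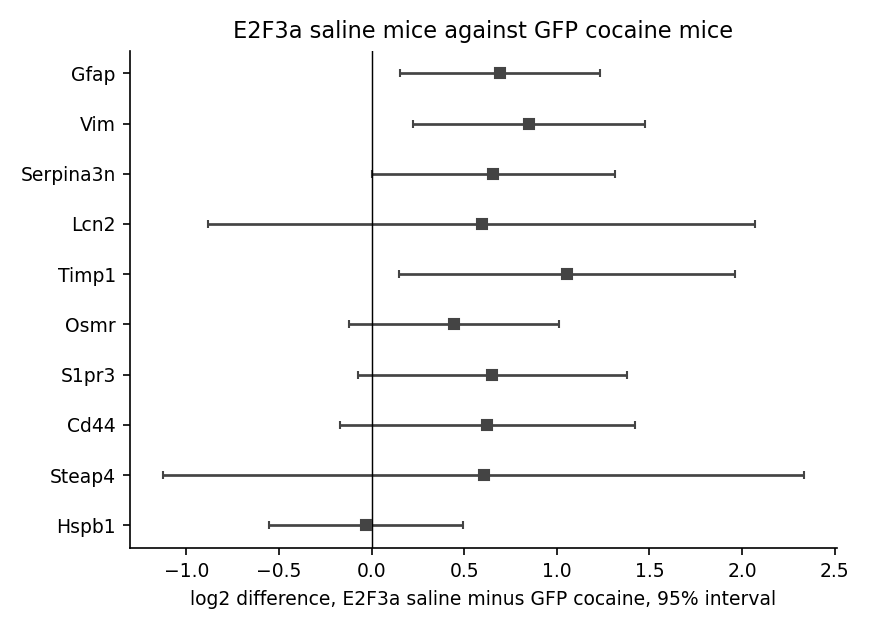
Log2 difference between E2F3a mice given saline and GFP mice given cocaine (horizontal axis) for each of the 10 genes, with squares for the estimate and bars for the approximate 95% interval. The bars of Gfap, Vim, Serpina3n and Timp1 lie above 0, that of Serpina3n only just, and Hspb1 sits at -0.030.

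Other genes of the reactive state were examined as a separate list. Of 32 entries 29 were measured, and their median after cocaine was -0.44, with 26 estimates below 0. Of the 29, 6 were lower at an unadjusted p under 0.05 and 0 higher, while 23 did not pass, beside 7.51% of all genes lower and 1.74% higher. The authors' deposited table gives S100a10, a calcium-binding family protein that partners annexin A2, at -0.99 (SE 0.32), S100a6, also of the S100 family, at -0.90 (SE 0.29), and Emp1, an epithelial membrane protein, at -0.91 (SE 0.35). H2-D1, a class I histocompatibility gene, was at -0.49 (SE 0.20) by the authors' deposited table. The remaining pair were Nes, described below, and Srgn, a proteoglycan of blood-borne and endothelial cells (-0.80, SE 0.36 in the authors' deposited table), which was named after its values were seen. With E2F3a the median was 0.072, and 0 of 29 passed in either direction. Between E2F3a saline and GFP cocaine mice 4 of 29 were higher, among them Emp1 (1.11, SE 0.35) and S100a6 (1.01, SE 0.29).

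Resting astrocyte markers were followed for comparison. Their median after cocaine was 0.035, with 9 estimates below 0 and 11 above, and 1 of 20 was lower at an unadjusted p under 0.05, near the 7.51% of all genes. That gene was Aldh1l1, a folate enzyme used as a general astrocyte marker, at -0.50 (SE 0.17) in the authors' deposited table. With E2F3a their median was 0.10, 17 of 20 estimates lay above 0, and 0 passed. Whether the reactive and the resting genes differ from each other was not tested.

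The pathway that feeds Osmr held 16 measured genes of 18 entries besides Osmr itself. After cocaine the median was -0.10, 2 of 16 were lower at an unadjusted p under 0.05 (7.51% of all genes) and 0 higher. Both were ligands of low abundance. The authors' deposited table lists Lif, leukemia inhibitory factor, at -1.16 (SE 0.50) and Osm, oncostatin M, the ligand of Osmr, at -0.67 (SE 0.30). The signalling parts downstream did not pass. Il6st, which encodes gp130, stood at 0.0069 (SE 0.15), Lifr at 0.28 (SE 0.24) and Stat3 at 0.12 (SE 0.20) by the authors' deposited table. Socs3, a feedback inhibitor that STAT3 induces, was at -0.56 with an SE of 0.42 in the authors' deposited table and did not pass. With E2F3a 0 of 16 passed, and Stat3 had the same estimate of 0.12 (SE 0.19) in the authors' deposited table.

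Partners of the other members were followed by family. Among filament genes, Nes, the filament protein of progenitors and reactive astrocytes, was at -0.66 (SE 0.27, p = 0.0310) after cocaine in the authors' deposited table. Synm, whose product assembles with vimentin and GFAP, was at 0.022 (SE 0.20), and Lmnb1, a nuclear lamin, at -0.63 (SE 0.23) in the authors' deposited table. Without Gfap and Vim, 2 of 8 measured filament genes were lower and 0 higher. The other inhibitors of metalloproteinases had estimates nearer 0, with Timp2 at 0.11 (SE 0.14), Timp3 at 0.14 (SE 0.15) and Timp4 at -0.024 (SE 0.24) by the authors' deposited table. Mmp14, a membrane-bound metalloproteinase, was at -0.96 (SE 0.30, p = 0.00759) by the authors' deposited table.

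CD44 is tied to the cytoskeleton by the proteins ezrin, moesin and radixin. The authors' deposited table gives Ezr at -0.50 (SE 0.12, p = 0.00156) after cocaine, Msn at -0.47 (SE 0.28) and Rdx at -0.13 (SE 0.12). Without Timp1 and Cd44, the list of these partners, metalloproteinases and inhibitors had 2 of 12 genes lower at an unadjusted p under 0.05. Those were Ezr and Mmp14, while 0 were higher and 10 did not pass. Among receptors for sphingosine 1-phosphate, S1pr1, the abundant form of astrocytes and endothelium, was at -0.13 (SE 0.096), while S1pr2 was at -0.69 (SE 0.28) and S1pr4, a leukocyte receptor, at -1.06 (SE 0.32) in the authors' deposited table. Slc22a17, a receptor proposed for lipocalin 2, was at 0.16 (SE 0.14) by the authors' deposited table. By the authors' deposited table Steap2, of the STEAP family, was at 0.34 (SE 0.39), Steap3 at -0.17 (SE 0.11) and Ftl1, the ferritin light chain, at -0.52 (SE 0.23). Ftl1 alone was lower at that threshold, which is 1 of 6 measured iron genes besides Steap4, and 0 were higher. Fth1 (-0.28) and Tfrc (-0.071) were among the 5 that did not pass.

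Other small heat shock genes had estimates below 0. Hspb6 was at -0.79 (SE 0.18, p = 0.00118) and Hspb8 at -0.41 (SE 0.16, p = 0.0253) after cocaine in the authors' deposited table, and Cryab at -0.25 (SE 0.23). Without Hspb1, 2 of 9 measured genes of the heat shock list were lower and 0 higher, with a median of 0.016. With E2F3a, 0 genes passed in the filament, metalloproteinase, sphingosine, heat shock and iron lists.

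**Figure D4:**
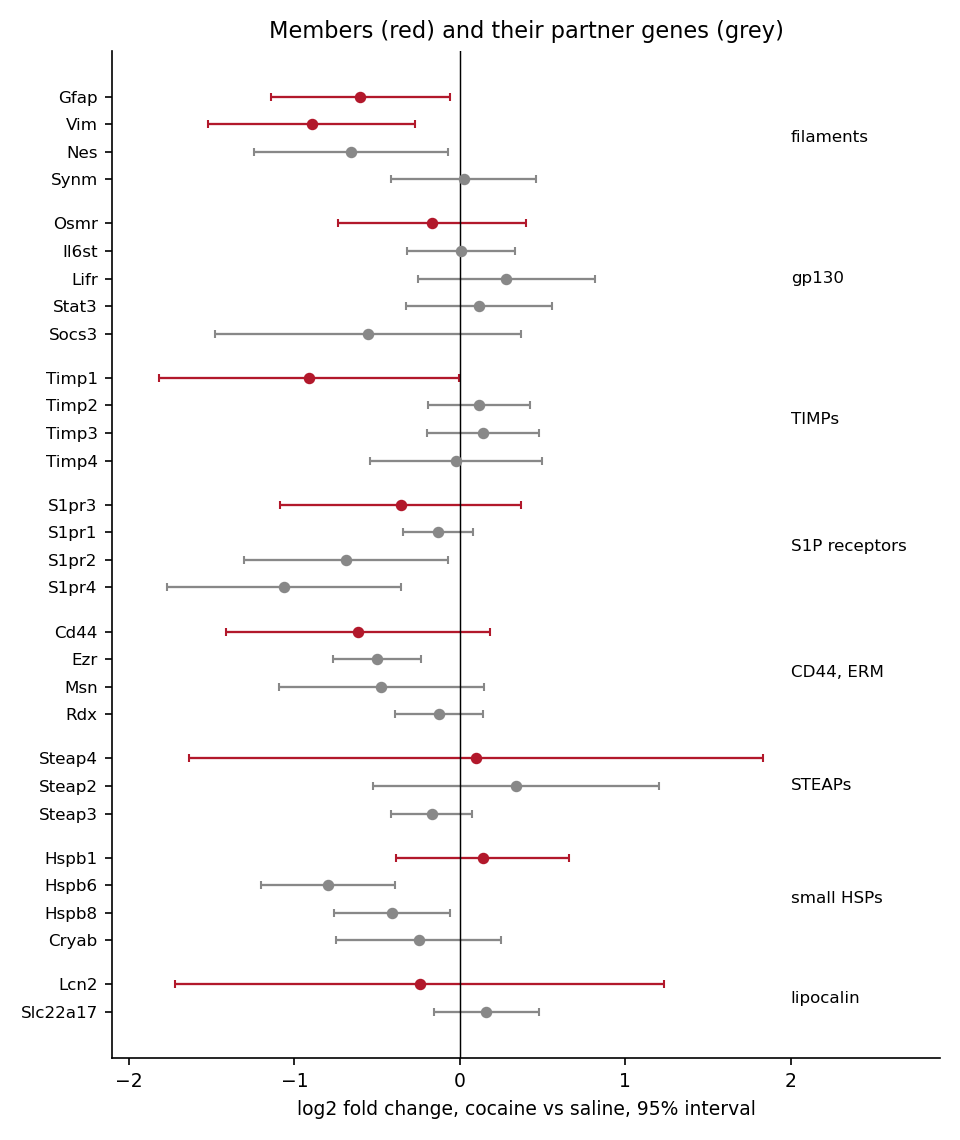
Log2 fold change for cocaine against saline in GFP mice (horizontal axis) for members (red) and selected related genes (grey). Points are the deposited estimates and bars the implied 95% intervals. S1pr2 and S1pr4 were named for their small p, and S1pr5 (-0.22), which did not pass, is not drawn. Timp1 is at -0.91, with a bar that ends just below 0, and Hspb1 is at 0.14. The bars of Vim, Gfap, Nes, Ezr, Hspb6, Hspb8, S1pr2 and S1pr4 also lie wholly below 0. Differences within a family were not tested.

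Some markers of other cell types were lower after cocaine at an unadjusted p under 0.05, in shares that differed by list and beside 7.51% of all genes, and their part in the result was not tested. Their summed level in each group is unknown, since the tables hold no group levels. The list of inflammatory signals to astrocytes held ligands and receptors, and also NF-kappaB genes, which act inside the cell. Of its genes, 6 of 18 were lower at an unadjusted p under 0.05, with a median of -0.38. No gene for interleukin 1, tumour necrosis factor or transforming growth factor itself was among the 6. Examples in the authors' deposited table are Tnfrsf1b, a receptor of tumour necrosis factor (-0.92, SE 0.35), C1qa, a complement protein of microglia (-0.51, SE 0.21), and the NF-kappaB genes Nfkbia (-0.51, SE 0.18) and Rela (-0.33, SE 0.14). Microglia markers had a median of -0.48 with 6 of 15 lower, while 9 did not pass. Among the 6, the authors' deposited table gives Tyrobp, a signalling adaptor, at -0.74 (SE 0.27), Ctss, a lysosomal protease, at -0.63 (SE 0.24), Aif1 at -0.54 (SE 0.21) and Olfml3 at -0.48 (SE 0.20). Leukocyte markers had a median of -1.16 with 9 of 11 lower. The B cell genes Cd79a and Cd79b were at -2.34 (SE 0.61) and -1.16 (SE 0.31), the T cell gene Cd3g at -1.76 (SE 0.58) and the monocyte gene Ly6c2 at -1.72 (SE 0.49) by the authors' deposited table. Globin genes and Alas2, a heme synthesis enzyme, had a median of -1.54 with 5 of 5 lower. The beta globins Hbb-bs and Hbb-bt were listed at -1.54 (SE 0.26) and -1.65 (SE 0.31), and the alpha globins Hba-a2 and Hba-a1 at -1.58 and -1.39 (both with an SE of 0.29), by the authors' deposited table, but near-identical globin copies can share reads, so their separate values are uncertain. All of these lists had 0 genes higher at that threshold.

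Some vascular and progenitor markers, of cells that share Vim with astrocytes, were lower too. Endothelial markers had a median of -0.32 with 7 of 14 lower. By the authors' deposited table Kdr, a receptor of vascular growth factor, was at -0.85 (SE 0.29), Cldn5, of the tight junction, at -0.59 (SE 0.17), Egfl7 at -0.43 (SE 0.14) and Esam at -0.33 (SE 0.12). Mural and fibroblast markers had a median of -0.23 with 2 of 13 lower, Vtn, vitronectin (-0.34, SE 0.13 in the authors' deposited table), and Rgs5, a regulator of G protein signalling in pericytes (-0.28, SE 0.12 in the authors' deposited table). Progenitor and neuroblast markers had a median of -0.12, with 3 of 14 lower and 1 higher. Igfbp2, a growth factor binding protein, was at -1.48 (SE 0.34), Fabp7, which binds fatty acids in glial progenitors, at -1.11 (SE 0.22), Top2a, a gene of dividing cells, at -0.89 (SE 0.32) and Sox11, of neuroblasts, at 0.39 (SE 0.17) in the authors' deposited table. Of the ependymal and choroid plexus markers 1 of 6 was lower, Rarres2 at -0.73 (SE 0.28) in the authors' deposited table. Medium spiny neuron markers had a median of 0.086, and 0 of 12 passed in either direction.

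With E2F3a the markers that passed were mostly those of blood and vessels. Globin genes and Alas2 were lower in 5 of 5, with a median of -0.87, and 3 of 14 endothelial markers and 1 of 11 leukocyte markers, Cd79b, were lower, beside 0.409% of all genes. Cldn5, of the endothelial tight junction, was at -0.47 (SE 0.15) by the authors' deposited table. Myh11, a smooth muscle myosin, was the one mural marker that was higher (0.63, SE 0.23 in the authors' deposited table). Tgfb2, a transforming growth factor, was the one inflammatory ligand that was higher (0.19, SE 0.086 in the authors' deposited table), and it was named after its values were seen. No microglia, resting astrocyte, progenitor or ependymal marker passed with E2F3a. Between E2F3a saline and GFP cocaine mice, 5 of 15 microglia, 3 of 11 leukocyte and 3 of 5 blood cell genes were higher (medians 0.47, 0.82 and 0.65). So were 2 of 6 ependymal, 2 of 14 progenitor and 2 of 20 resting astrocyte markers, beside 3.51% of all genes. For endothelial, mural and medium spiny neuron markers the number was 0.

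**Figure D5:**
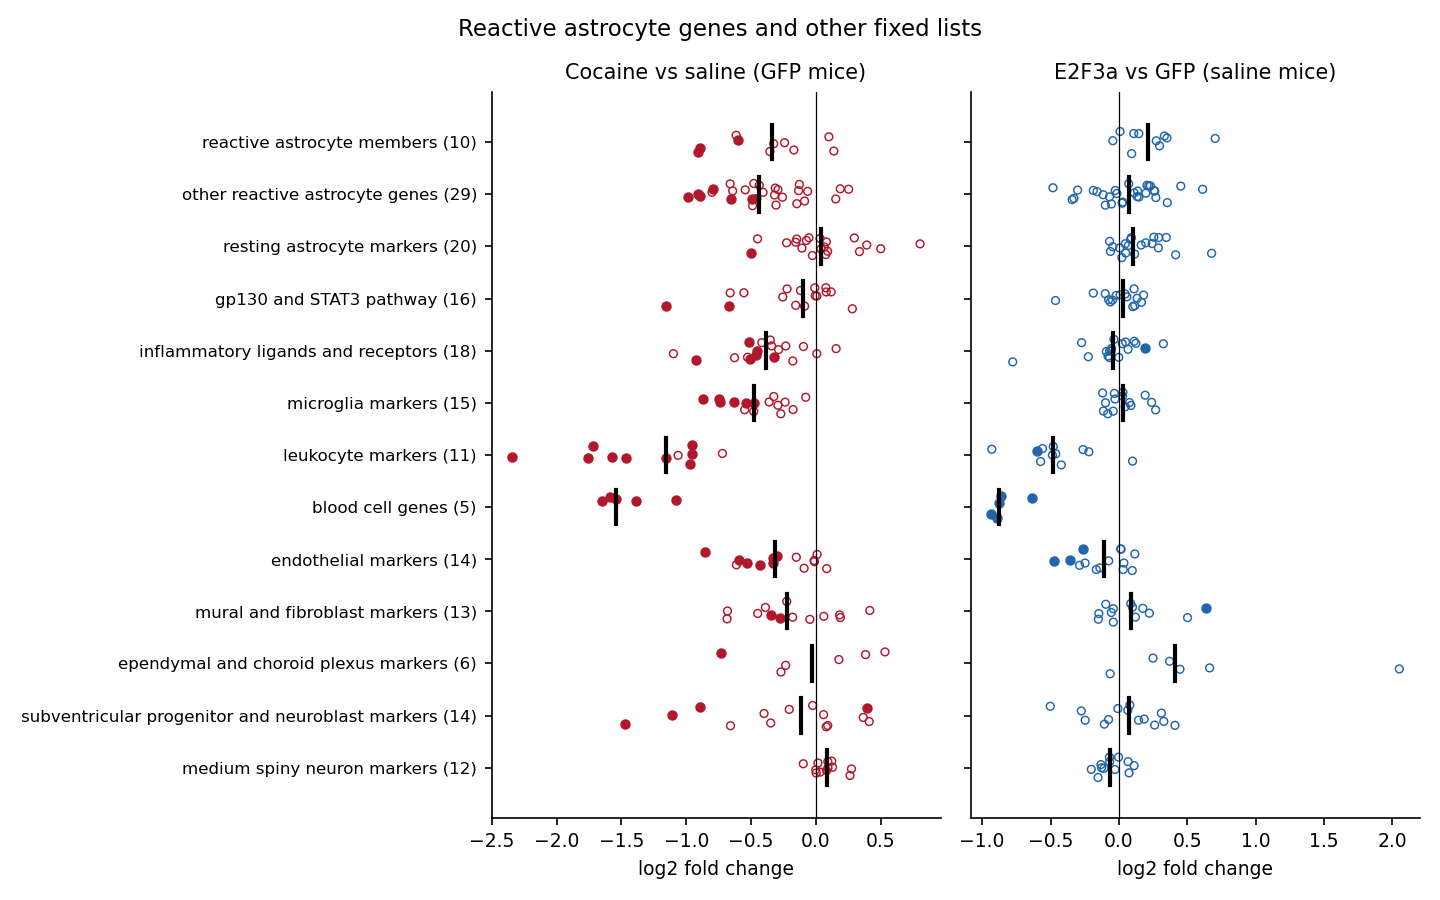
Log2 fold change (horizontal axes) of each measured gene in the reactive astrocyte list and 12 other lists, for cocaine against saline in GFP mice (left) and E2F3a against GFP in saline mice (right), where filled points have an unadjusted p under 0.05 and black bars are medians. Numbers in brackets count the measured genes, and members are left out of the other lists. On the left, 8 of the 10 reactive genes lie below 0 (median -0.34), as do 15 of 15 microglia, 11 of 11 leukocyte and 5 of 5 blood cell genes.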

How the data were processed

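Libraries were made from poly-A RNA with a TruSeq v2 kit and read as single ends, per the labels' protocols. The tools in the submitters' processing notes, which give no roles, are HTSeq 0.6.0, TopHat2 2.0.9 and Bowtie2 2.1.0, with mm10 as the build. How values were normalized, filtered and tested is not given in the sources used here. Each of the 2 deposited tables covers 1 comparison. Per the file headers, the log2 columns are fold change and average expression. The score columns, per the file headers, are the t statistic and the log odds. Unadjusted and adjusted p-values complete the deposited columns. The headers are those of limma output. Deposited adjusted p-values equalled a Benjamini-Hochberg adjustment over 14667 genes. No count, library total or value per mouse is in the tables used, so depth is unknown and precision is known only through the SE.

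SEs were computed as fold change over t, with 95% intervals at the 11.29 degrees of freedom that the p-values imply. The comparison of E2F3a saline with GFP cocaine is the difference of the deposited fold changes, with the cocaine SE, adjusted over all genes. It assumes equal weight per library. The median SE ratio between the tables was 1.08, which the group sizes also give. Exon lengths and coordinates are from GENCODE M21 (mm10), found for 99.4% of genes. Promoters are from the RefSeq table on GRCm38.p6, in which all 10 members were matched. Python 3.11.15, numpy 2.4.6, scipy 1.17.1, pandas 2.3.3 and matplotlib 3.10.9 were used. The scripts were tested on simulated data.

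The members and the 17 other lists were chosen with earlier results of these data known. All members are named. From each other list up to 4 genes with the smallest unadjusted p under 0.05 in either deposited comparison are named, plus fixed partners of members. The labels give 1 mouse per library, so the mice are biological replicates. Alternatives were stricter and looser thresholds, an expression floor, centring, trend removal and other SEs.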

Additional observations from a re-analysis of the deposited data

How the results depend on the processing

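The number of reactive astrocyte genes lower after cocaine was 3 at an unadjusted p under 0.05 and 1, Vim, at a p under 0.01. In the difference between E2F3a saline and GFP cocaine mice the number higher was 4, against 0 at a p under 0.01 and 0 with both SEs added in quadrature. Those settings are stricter by construction. The other 43 of 46 counts and medians stayed within 1.5 times the reported count or within 1 median SE, under a looser adjusted p of 0.1, centring on the median of all genes, removal of the trend in mean expression, a minimum fold of 1.3, and use of only those genes above the 25th percentile of expression (3.21 as log2). Most of the 46 were counts of 0, which the stricter settings among these could not change. With SEs of this size, any member that passed also exceeded a fold of 1.3, so that setting could not remove one. For single genes, 71 of 80 values kept their direction and side of the threshold and 8 lost an unadjusted p under 0.05. Most of the 80 were not under that threshold as deposited and so could not lose it. One value reversed, that of Cd44 with E2F3a, which was 0.0083 as deposited and -0.0073 with the trend removed, both near 0; the cause was not tested. Centring moved all genes by less than 0.1 on the log2 scale. No paired analysis was possible because the tables hold no values per library, and leaving out each mouse in turn was not run for the same reason. The effect of 1 mouse on any value is therefore unknown.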

Other observations

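The list of other reactive astrocyte genes spanned a wide range of mean expression. Genes expressed below the median level of the list included Cd14 at percentile 16.4 and Ptgs2 at percentile 32.6 of mean expression in the authors' deposited table. The 4 genes that follow were picked from it for their high levels, after their values were seen, and stand for no group. Nor do Cd14 and Ptgs2. Gbp2, an interferon-induced GTPase, stood at percentile 99.5 of mean expression in the authors' deposited table, and Iigp1, another interferon-induced GTPase, at percentile 99.2. C3, complement component 3, was at percentile 97.9 and Cxcl10, an interferon-induced chemokine, at percentile 96.1 by the authors' deposited table. Per kilobase of exon their log2 levels were 8.47 for Gbp2, 6.82 for Iigp1, 6.21 for C3 and 6.92 for Cxcl10, beside 8.07 for Gfap. They did not pass an unadjusted p of 0.05 in either comparison. After cocaine the authors' deposited table has Gbp2 at -0.088 (SE 0.25), Iigp1 at 0.19 (SE 0.23), C3 at -0.31 (SE 0.34) and Cxcl10 at -0.13 (SE 0.38). With E2F3a the authors' deposited table has them at 0.13 (SE 0.23), 0.26 (SE 0.22), 0.23 (SE 0.32) and 0.21 (SE 0.36). All groups carried a virus, and no mice without it were analysed here, so the level without virus is unknown.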
